A study of Homo sapiens with 6 samples.

Results

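The genes described here are those of the proteasome whose symbols begin with PSMA to PSMG and a number, which name the subunits of the core, of the regulatory particle and of the activators, an inhibitor and assembly factors. Of 48 such protein-coding genes in RefSeq, 45 had a probe set listed with that 1 symbol, out of 18417 genes with such a probe set on the array. PSMC5, PSMD7 and PSMD13 were not analysed here. The genes were chosen by symbol alone and no measured value entered the choice, although earlier results of these arrays were known. The RNA came from EVs of JinB8 cells, a somatic mutant of the human T cell leukemia line Jurkat that lacks CD47 (CD47- EVs, 3 arrays), and from EVs of the parental Jurkat line (WT EVs, 3 arrays). Both lines were cultured for 24 to 48 h in a defined medium without serum, and 300 ng of total RNA was labeled for each Affymetrix whole-transcript human gene array. JinB8 is 1 line, so that the absence of CD47 and any other difference between the 2 lines cannot be told apart. EVs were precipitated with Exo-quick or Exo-spin, and the labels do not say which kit served which preparation. The submitters call the 3 preparations of a line cell culture replicates without saying more, so p values measure the spread between these preparations, which may be technical.

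The proteasome is the protease that degrades proteins marked with ubiquitin. Its core is a barrel of stacked rings, in which outer rings of alpha subunits gate the entrance and inner rings of beta subunits carry the proteolytic sites. The regulatory particle docks on the alpha ring and has a base, whose ATPases unfold the substrate and thread it into the core, and a lid, which removes the ubiquitin chain. In lymphoid cells and under interferon gamma, the catalytic beta subunits can be replaced by immunoproteasome subunits, which change the peptides made for MHC class I. Ubiquilins carry ubiquitinated proteins to the proteasome, and ubiquilin-1 is also a cytoplasmic adapter of CD47. Whether CD47 acts on the proteasome was not tested here.

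Values are log2 values from robust multi-array average (RMA), which gives all arrays nearly the same distribution, so that each is a level relative to the rest of the RNA on an array. The medians over all probe sets of the 6 arrays lay between 5.08 and 5.14, and across genes the correlation of any 2 arrays was 0.980 to 0.989. A lower value can come from fewer EVs that carry an mRNA or from fewer copies per EV, which cannot be told apart. The probe set of CD47 had 4.58, 4.67 and 4.94 in CD47- EVs, against 4.72, 4.69 and 4.72 in WT EVs (log2 fold change 0.02, SE 0.09), so it does not check the labels. The 341 olfactory receptor genes, a family not expected in T cells, served as a gauge of background, with 5.49 as their median and 6.79 as their 95th percentile on the log2 scale. Of the 45 proteasome genes, 20 had a mean over that median and 1, PSMF1, a mean over that percentile. The other 25 genes lay below the median of genes that should be silent, a level at which these values do not show whether the mRNA was present. The 9 T cell markers examined had summed log2 values from 54.5 to 54.7 in CD47- EVs and from 52.3 to 53.6 in WT EVs, and 0 of them passed the test (limma); 2 of them, CD7 and LCK, had a mean over the 95th percentile. The 13 markers of other cell types had sums from 66.1 to 67.0 in CD47- EVs and from 66.2 to 67.6 in WT EVs, with 0 of 13 passed and 0 over that percentile. The median log2 fold change was 0.14 for the T cell markers and -0.0094 for the others, and that of the 45 proteasome genes was 0.10. In CD3D, CD3E, CD3G and PTPRC every CD47- array lay above every WT array. The part of these markers in the results below was not tested.

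Of the 45 proteasome genes, 32 had a higher mean in CD47- EVs than in WT EVs and 13 a lower one, and most of these differences were small. PSMD8, a lid subunit, rose 1.48-fold and was the only gene of the 45 that passed the test (limma with adjustment over all genes, adjusted p under 0.05). PSMA6, an alpha subunit, had the largest log2 fold change, 0.88, but its groups overlapped and it did not pass. All 7 constitutive beta subunits had log2 fold changes above 0. Of the 4 immunoproteasome and thymoproteasome subunits, PSMB8 had a value of 0.19, with no overlap between the groups. PSMB10 and PSMB11 had values below 0 and PSMB9 one of -0.0064. None of the 4 passed, and the signs of PSMB9 and PSMB11 turned when single arrays were left out. Only 1 of the 4, PSMB10, had a mean over the median of the olfactory receptor genes, and the mean of PSMB11 exceeded that of only 5.87% of them.

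Of the 45 genes, 1 (2.22%) passed as higher in CD47- EVs, where 0.668% of all genes did, and 0 passed as lower, where 0.0163% did. At an unadjusted p under 0.05, 12 of the 45 genes (26.7%) were higher and 0 were lower, against 5.16% and 2.87% of all genes. Of these 12, PSMB2, PSMC4, PSMD2, PSMD8 and PSMF1 had a mean over the median of the olfactory receptor genes, and the others lay below it. In 14 genes (31.1%) every CD47- array lay above every WT array, against 7.3% of all genes, and in 1 gene, PSME3, every CD47- array lay below, against 5.53%. Of these 14, PSMB6, PSMC4, PSMD8, PSME1, PSMF1 and PSMG3 had a mean over the median of the olfactory receptor genes, and the others lay below it. The median log2 fold change of the 45 genes was 0.10, with values from -0.19 (PSMB10) to 0.88 (PSMA6), and that of all genes was 0.0029. Among the 17239 genes with a mean in the range of the proteasome genes, the median was 0.0017, 0.394% passed as higher and 4.80% were higher at an unadjusted p under 0.05. With only genes over the olfactory receptor median, the median log2 fold change was 0.091 for 20 proteasome genes and 0.013 for all genes. The fold changes of 32 genes (71.1%) were above 0 and those of 13 below, where 51.3% of all genes had a value above 0. Centering the arrays on the olfactory receptor genes, whose own median log2 fold change was -0.05, made this 40 of 45, but it adds the same amount to every gene (it moved the median of all genes to 0.06) and is not particular to the proteasome. These genes share arrays and are not independent of each other, and 20 of the 45 have at least 1 pseudogene in RefSeq.

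The 3 CD47- arrays were not alike. The median deviation of the 45 genes from their own mean over the 6 arrays was 0.02, 0.03 and 0.09 in the CD47- arrays, against -0.04, -0.05 and -0.06 in the WT arrays. CD47- replicate 3 held the highest value of 19 of the 45 genes, where 16.6% of all genes had their highest value. In the 3 CD47- arrays 27, 29 and 37 genes lay above their own mean, against 14, 16 and 14 in the 3 WT arrays. Of all genes, 52.0%, 52.0% and 49.0% lay above their own mean in the CD47- arrays, against 56.7%, 51.9% and 38.3% in the WT arrays, so that WT replicate 3 was low for all genes and not only for these. Leaving out 1 array at a time gave a median log2 fold change of the 45 genes between 0.072 and 0.13.

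**Figure D1:**
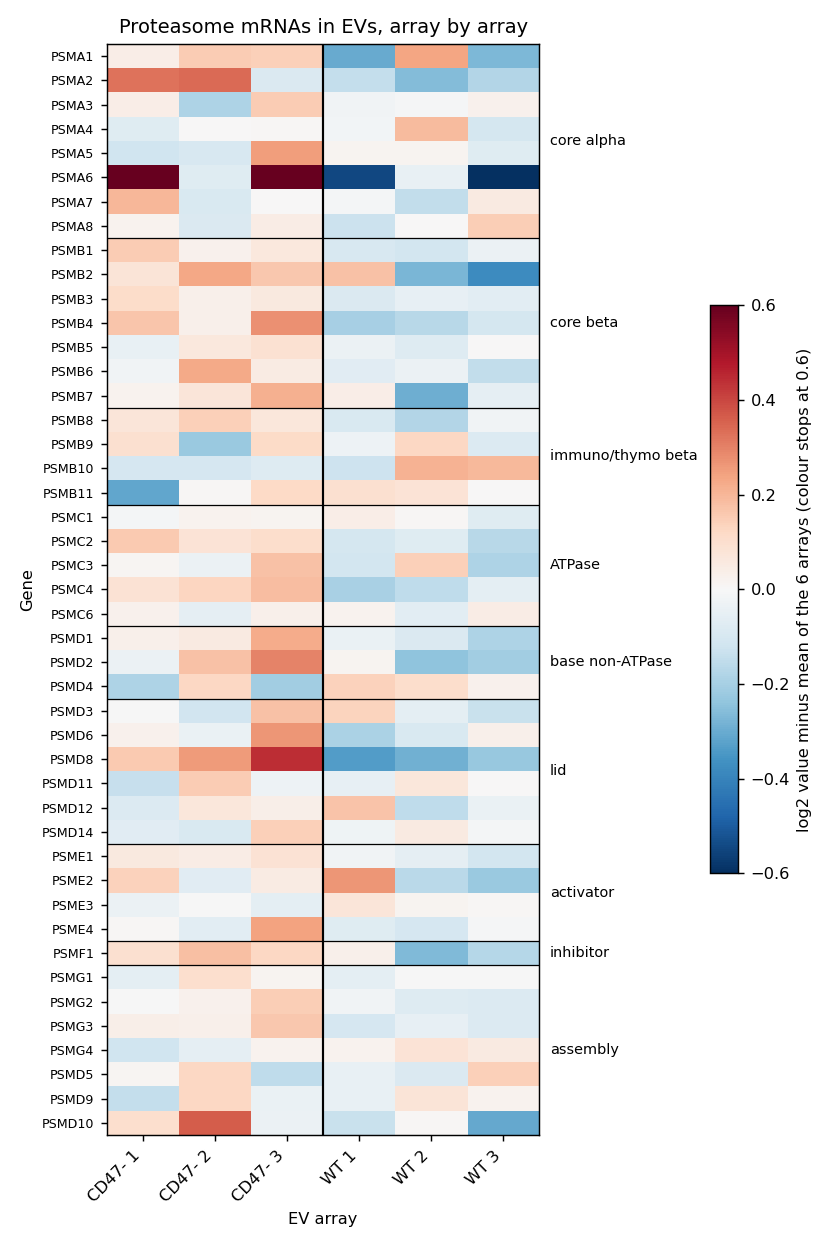
Heat map of the 45 proteasome genes (rows, grouped by class) in the 3 CD47- and the 3 WT EV arrays (columns), with color for the log2 value minus the gene's mean over the 6 arrays. Red prevails in the CD47- columns, most in replicate 3, where 37 genes lie above their own mean, and the WT columns have 14, 16 and 14 such genes.

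PSMD8, known as Rpn12, is a lid subunit that joins the lid last during assembly. Its log2 values were 6.06, 6.16 and 6.35 in CD47- EVs, against 5.57, 5.62 and 5.68 in WT EVs. All CD47- arrays lay above all WT arrays. The log2 fold change was 0.57 (SE 0.09, 95% CI 0.38 to 0.76) with an adjusted p of 0.00849 (limma). PSMD8 passed in each of the 14 alternatives run for it, with adjusted p from 0.00112 to 0.0444 (limma). Its mean exceeded that of 66.9% of the olfactory receptor genes, and RefSeq lists 1 pseudogene of PSMD8 that could share its probes.

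The bases before the starts of PSMD8, PSMB4 and PSMB10 are shown because these genes passed the test, had the smallest p among the beta subunits and had the lowest fold change of the 45 genes, in that order. Capitals mark matches to the motifs searched on both strands, which were a CCAAT box (CCAAT), an ETS site (CCGGAAG), an interferon-stimulated response element (TTTCNNTTTC) and an antioxidant response element (TGACNNNGC), the element through which the factor NFE2L1 is known to raise proteasome genes. Sequences are from RefSeq (GRCh38.p14), on the strand of the gene, and end at the base before the start.
PSMD8 (chr19:38374321-38374570, plus strand): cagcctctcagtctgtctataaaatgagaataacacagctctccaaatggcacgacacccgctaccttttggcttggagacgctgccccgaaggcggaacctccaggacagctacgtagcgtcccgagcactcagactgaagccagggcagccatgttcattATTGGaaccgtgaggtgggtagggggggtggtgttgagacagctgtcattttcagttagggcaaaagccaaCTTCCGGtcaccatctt
PSMB4 (chr1:151399323-151399572, plus strand): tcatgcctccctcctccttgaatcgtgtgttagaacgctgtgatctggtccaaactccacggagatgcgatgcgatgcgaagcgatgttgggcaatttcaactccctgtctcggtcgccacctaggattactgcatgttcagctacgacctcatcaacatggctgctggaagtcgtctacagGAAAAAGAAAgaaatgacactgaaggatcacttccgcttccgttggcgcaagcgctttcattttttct
PSMB10 (chr16:67936851-67937100, minus strand): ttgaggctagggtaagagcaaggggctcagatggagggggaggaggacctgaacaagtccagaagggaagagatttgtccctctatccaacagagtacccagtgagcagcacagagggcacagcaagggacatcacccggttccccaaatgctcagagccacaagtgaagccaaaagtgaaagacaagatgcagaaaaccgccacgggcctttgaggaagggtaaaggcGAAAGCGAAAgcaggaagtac
The stretch of PSMD8 held a CCAAT box and an ETS site, both read on the opposite strand. The stretches of PSMB4 and PSMB10 each held an interferon-stimulated response element, and neither gene passed the test. The part of these motifs in the fold changes was not tested. RefSeq promoters were matched for 39 of the 45 genes (47 promoters), and PSMA7, PSMB1, PSMB6, PSMB7, PSMD4 and PSMG3 had no entry. The antioxidant response element was found in 25.5% of the 47 promoters and 10.9% of all 35116 promoters of 250 bases, the ETS site in 21.3% and 8.52%, the CCAAT box in 36.2% and 32% and the interferon-stimulated response element in 10.6% and 3.02%. These are matches of letters and no binding was measured.

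The lid had 6 measured genes, of which PSMD8 passed (16.7%, against 0.668% of all genes). The other lid genes had much smaller fold changes, and the median over the 6 genes was 0.03, with values below 0 when CD47- replicate 3 or WT replicate 3 was left out. PSMD6 (Rpn7) had a log2 fold change of 0.17, PSMD3 (Rpn3) of 0.04, PSMD12 (Rpn5) of 0.01 and PSMD14 (Rpn11), the deubiquitinating enzyme of the lid, of -0.01. PSMD11 (Rpn6) was the lowest, with 4.62, 4.91 and 4.73 in CD47- EVs and 4.71, 4.82 and 4.76 in WT EVs. Its groups overlapped, with a 95% CI of the log2 fold change from -0.20 to 0.18.

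Of the 8 alpha subunits, 6 had log2 fold changes above 0 and 2 below, with a median of 0.05, and 0 passed in limma. Higher at an unadjusted p under 0.05 were 2 (25%), against 5.16% of all genes. That median ranged from 0.024 without CD47- replicate 3 to 0.12 without CD47- replicate 2. Only 1 of the 8, PSMA7, had a mean over the median of the olfactory receptor genes. PSMA6 (alpha1) had log2 values of 5.93, 5.23 and 6.06 in CD47- EVs, against 4.75, 5.25 and 4.58 in WT EVs. CD47- replicate 2 and WT replicate 2 had nearly the same value, whereas the other arrays differed by over 1 on the log2 scale. The log2 fold change was 0.88 (SE 0.20, adjusted p = 0.0947, limma). It passed with olfactory receptor centering, without CD47- replicate 2 or without WT replicate 2, with adjusted p from 0.00957 to 0.393 when each array was left out in turn (limma), so that its call depends on these arrays. The mean of PSMA6 exceeded that of only 44.3% of the olfactory receptor genes, and RefSeq lists 4 pseudogenes of PSMA6.

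PSMA2 (alpha2) had 4.15, 4.16 and 3.73 in CD47- EVs, against 3.68, 3.56 and 3.64 in WT EVs. Its groups did not overlap, although CD47- replicate 3 lay close to the WT arrays. The log2 fold change of 0.38 passed only when that array was left out or with olfactory receptor centering. The mean of PSMA2 exceeded that of only 9.97% of the olfactory receptor genes. PSMA4 (alpha3), the lowest of the class, had 4.37, 4.44 and 4.45 in CD47- EVs and 4.42, 4.63 and 4.33 in WT EVs, with a log2 fold change of -0.04 and overlapping groups. The log2 fold change was 0.22 for PSMA1 (alpha6), 0.07 for PSMA7 (alpha4), 0.02 for PSMA5 (alpha5), 0.0025 for PSMA3 (alpha7) and -0.01 for PSMA8, the alpha4 variant of the testis, which had the lowest mean of the 45 genes. The alpha ring therefore held both the largest fold change of the 45 genes and several near 0.

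Of the 7 constitutive beta subunits, all had log2 fold changes above 0, with a median of 0.17, and 0 passed in limma. In 4 of them (57.1%, against 7.3% of all genes) the CD47- arrays lay above the WT arrays without overlap. At an unadjusted p under 0.05, 2 (28.6%, against 5.16%) were higher. Only 3 of the 7 had a mean over the median of the olfactory receptor genes. The means of PSMB1, PSMB3 and PSMB4, which had no overlap, exceeded those of only 16.7%, 27.3% and 32.6% of these receptor genes. PSMB4 (beta7) had log2 values of 5.13, 5.00 and 5.24 in CD47- EVs, against 4.77, 4.80 and 4.86 in WT EVs. Its groups did not overlap, and the log2 fold change was 0.32 (SE 0.08, 95% CI 0.14 to 0.50) with an adjusted p of 0.161 (limma). PSMB2 (beta4) had 6.42, 6.57 and 6.50 in CD47- EVs and 6.52, 6.07 and 5.96 in WT EVs. WT replicate 1 was as high as the CD47- arrays, and the log2 fold change was 0.32. PSMB2 passed without WT replicate 1 (adjusted p = 0.0406, limma). PSMB1 (beta6) and PSMB3 (beta3) had log2 fold changes of 0.16 and 0.13, with no overlap between the groups in either.

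**Figure D2:**
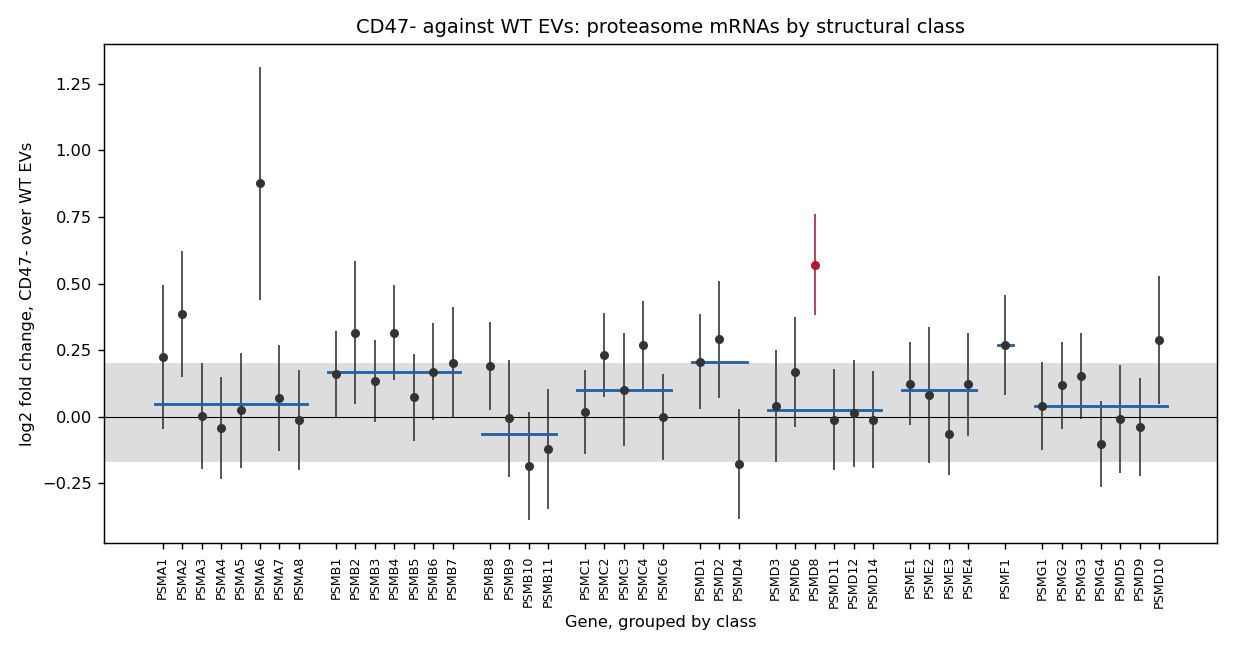
Log2 fold change of each proteasome gene, CD47- over WT EVs, with its 95% confidence interval from limma (vertical lines), grouped by class along the horizontal axis; blue bars are class medians and the gray band holds the middle 90% of all genes. PSMD8, in red, passed the test, and all 7 core beta genes lie above 0. The median of the 4 immunoproteasome and thymoproteasome genes lies below 0, with PSMB8 above 0.

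The catalytic subunits and the immunoproteasome subunits that replace them were compared as 3 pairs. PSMB6 (beta1) had 5.999, 6.25 and 6.07 in CD47- EVs, against 5.95, 5.98 and 5.87 in WT EVs, with all CD47- arrays above all WT arrays and a log2 fold change of 0.17. Its replacement PSMB9 (beta1i) had 5.58, 5.26 and 5.60 in CD47- EVs and 5.45, 5.60 and 5.40 in WT EVs, which overlapped, with a log2 fold change of -0.0064. The difference PSMB9 minus PSMB6 within an array shifted by -0.18 on the log2 scale, CD47- minus WT EVs (95% CI -0.69 to 0.34, exact two-sided permutation p = 0.6, adjusted over 3 pairs 0.6), and by 0.0053 without CD47- replicate 2.

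PSMB7 (beta2) had 5.71, 5.76 and 5.91 in CD47- EVs and 5.73, 5.40 and 5.64 in WT EVs, with 1 WT array among the CD47- values and a log2 fold change of 0.20. PSMB10 (beta2i) had 5.78, 5.78 and 5.81 in CD47- EVs and 5.76, 6.09 and 6.08 in WT EVs. WT replicate 1 was as low as the CD47- arrays and the other WT arrays were higher, with a log2 fold change of -0.19 (95% CI -0.39 to 0.02), the lowest of the 45 genes. The difference PSMB10 minus PSMB7 shifted by -0.39 (95% CI -0.95 to 0.17, exact permutation p = 0.2, adjusted 0.3), and by -0.57 without WT replicate 1 and -0.24 without WT replicate 2.

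PSMB5 (beta5) had 5.05, 5.16 and 5.18 in CD47- EVs and 5.06, 5.02 and 5.10 in WT EVs, with a log2 fold change of 0.07, the lowest of the constitutive beta subunits. PSMB8 (beta5i) had 5.21, 5.28 and 5.20 in CD47- EVs, against 5.04, 4.96 and 5.12 in WT EVs, with no overlap and a log2 fold change of 0.19 (SE 0.08). The difference PSMB8 minus PSMB5 shifted by 0.12 (95% CI -0.01 to 0.25, exact permutation p = 0.1, adjusted 0.3). With 3 arrays a group the smallest p this test allows is 0.1, so none of the 3 pairs could pass, and the intervals leave room for shifts in either direction. PSMB8 and PSMB9 each had 3 probe sets with identical values, which are no separate measurements. PSMB11, the beta5 subunit of the thymus (beta5t), had a log2 fold change of -0.12, and its mean exceeded that of only 5.87% of the olfactory receptor genes. The means of PSMB5, PSMB8 and PSMB9 exceeded those of 35.8%, 38.1% and 49.9% of these receptor genes. Of the 4 immunoproteasome and thymoproteasome genes, only PSMB10 had a mean over the median of the receptor genes. The median over the 4 genes was -0.06, against 0.17 for the 7 constitutive beta subunits. Without PSMB11, the middle value of the 3 immunoproteasome subunits was that of PSMB9, -0.0064. When each array was left out, the medians ranged from -0.13 to -0.027 for the 4 genes and from 0.15 to 0.22 for the 7, and with olfactory receptor centering they were -0.0052 and 0.23. The difference between these classes was not tested.

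**Figure D3:**
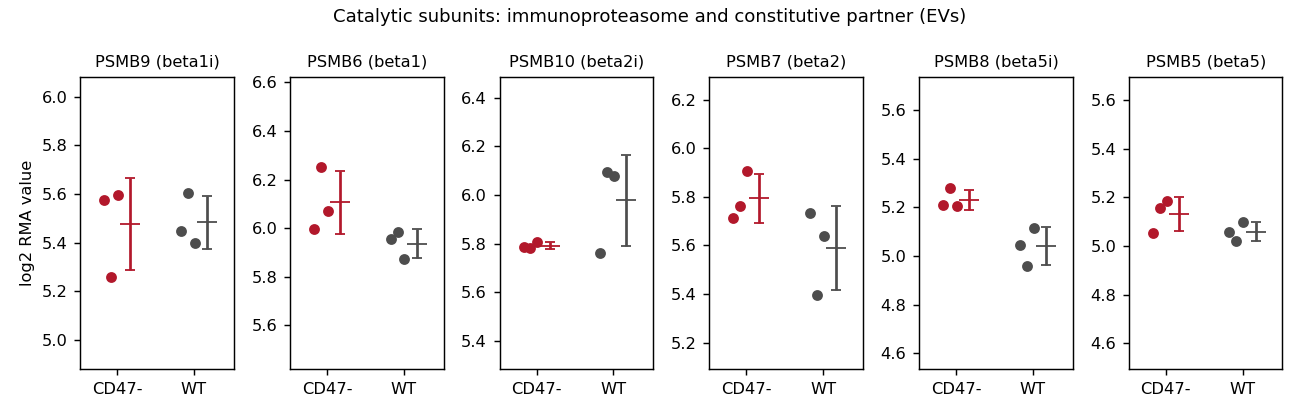
Log2 RMA values of the immunoproteasome subunits PSMB9, PSMB10 and PSMB8, each beside the constitutive subunit it replaces (PSMB6, PSMB7, PSMB5); points are arrays, bars are the mean and SD (n = 3), CD47- left of WT, and every panel spans the same log2 range. PSMB6 and PSMB8 have no overlap between CD47- and WT EVs, and PSMB10 is lower in CD47- EVs than in 2 of the 3 WT arrays.

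Of the 5 measured ATPases of the base, 4 had log2 fold changes above 0, with a median of 0.10, and 0 passed in limma. At an unadjusted p under 0.05, 2 (40%) were higher, against 5.16% of all genes. Leaving out WT replicate 3 made that median 0.034, leaving out CD47- replicate 3 made it 0.039, and leaving out WT replicate 2 made it 0.20. PSMC4 (Rpt3) had log2 values of 6.06, 6.10 and 6.16 in CD47- EVs, against 5.78, 5.82 and 5.92 in WT EVs. These groups did not overlap, and the log2 fold change was 0.27 (SE 0.08, adjusted p = 0.208, limma). PSMC2 (Rpt1) likewise had no overlap, with a log2 fold change of 0.23, but its mean exceeded that of only 13.5% of the olfactory receptor genes. PSMC3 (Rpt5) and PSMC1 (Rpt2) had 0.10 and 0.02. For PSMC1, RefSeq lists 13 pseudogenes, and its second probe set had a log2 fold change of 0.04. PSMC6 (Rpt4) was lowest, with 5.61, 5.53 and 5.62 in CD47- EVs and 5.61, 5.53 and 5.63 in WT EVs, which overlapped throughout. A second, dimmer probe set of PSMC6, with a mean of 3.87, had a log2 fold change of 0.20 (SE 0.10), against -0.0011 (SE 0.07) for the first. Its groups overlapped too, with 3.80 to 4.16 in CD47- EVs and 3.66 to 3.90 in WT EVs. The difference between the 2 probe sets was not tested, and RefSeq lists 3 pseudogenes of PSMC6.

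The base subunits without ATPase activity hold the sites that bind ubiquitin and shuttle factors. PSMD2 (Rpn1), a scaffold that binds the ubiquitin-like domain of shuttles, had 5.46, 5.68 and 5.80 in CD47- EVs and 5.51, 5.26 and 5.29 in WT EVs. CD47- replicate 1 lay below WT replicate 1, and the log2 fold change was 0.29 (SE 0.10, adjusted p = 0.379, limma). PSMD1 (Rpn2), the other scaffold, had a log2 fold change of 0.21 with no overlap. PSMD4 (Rpn10), the ubiquitin receptor, had 5.38, 5.69 and 5.36 in CD47- EVs and 5.70, 5.67 and 5.59 in WT EVs. Of its CD47- arrays, 2 lay below the WT arrays and the other among them, with a log2 fold change of -0.18 (95% CI -0.38 to 0.03).

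The activators bind the ends of the core in place of the regulatory particle. PSME1 (PA28 alpha), which with PSME2 forms the interferon-inducible activator, had 6.11, 6.10 and 6.14 in CD47- EVs, against 6.03, 6.002 and 5.94 in WT EVs. Its groups did not overlap, with a log2 fold change of 0.12. PSME3 (PA28 gamma), the nuclear activator, had 5.57, 5.60 and 5.55 in CD47- EVs, against 5.68, 5.62 and 5.62 in WT EVs, and was the only gene of the 45 with all CD47- arrays below the WT arrays, by a log2 fold change of -0.06. PSME4 (PA200) had a log2 fold change of 0.12 and PSME2 (PA28 beta), which has 6 pseudogenes in RefSeq, of 0.08. PSMF1 (PI31), which inhibits the core in vitro, had 6.97, 7.05 and 6.99 in CD47- EVs, against 6.90, 6.61 and 6.70 in WT EVs, with no overlap and a log2 fold change of 0.27 (SE 0.09, adjusted p = 0.316, limma).

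Assembly factors escort the rings and the base together and leave the finished particle. Of 7, 4 had log2 fold changes above 0, the median was 0.04 and 0 passed in limma. Only 1 (14.3%) was higher at an unadjusted p under 0.05, against 5.16% of all genes. Without CD47- replicate 2 that median was -0.0014. PSMD10 (gankyrin), a chaperone of the base, had 4.09, 4.36 and 3.96 in CD47- EVs and 3.86, 4.002 and 3.69 in WT EVs, with CD47- replicate 3 below WT replicate 2 and a log2 fold change of 0.29. Among the chaperones of the alpha ring, PSMG3 (PAC3) and PSMG2 (PAC2) had 0.15 and 0.12 without overlap, and PSMG1 (PAC1) had 0.04. PSMG4 (PAC4), the partner of PSMG3, had 5.73, 5.79 and 5.87 in CD47- EVs and 5.87, 5.93 and 5.90 in WT EVs, with a log2 fold change of -0.10. The 2 partners thus had fold changes of opposite sign. The base chaperones PSMD5 (S5b) and PSMD9 (p27) had log2 fold changes of -0.0074 and -0.04.

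Outside the PSM symbols, 21 of 26 genes that assemble, feed or regulate the proteasome were measured, and 4 of the 21 (19.0%) passed as higher and 0 as lower, against 0.668% and 0.0163% of all genes. Only 10 of the 21 had a mean over the median of the olfactory receptor genes. The list was drawn up with earlier results of these arrays known. POMP, the maturation protein that guides assembly of the beta rings, had 4.98, 5.20 and 5.13 in CD47- EVs, against 4.70, 4.70 and 4.46 in WT EVs (log2 fold change 0.48, SE 0.09, adjusted p = 0.0323, limma), and its mean exceeded that of only 29.0% of the olfactory receptor genes. UBB, a polyubiquitin gene whose probes may not be unique to it, had 8.14, 8.38 and 8.28 in CD47- EVs, against 7.91, 7.66 and 7.69 in WT EVs (0.52, SE 0.09, adjusted p = 0.0225, limma). In each of these genes the arrays of the groups did not overlap. UBA1, the enzyme that activates ubiquitin, had 5.85, 5.90 and 5.90 in CD47- EVs, against 5.43, 5.53 and 5.52 in WT EVs (0.39, SE 0.07, adjusted p = 0.0312, limma). UBQLN1, which encodes ubiquilin-1, the adapter of CD47, had 5.69, 5.73 and 5.78 in CD47- EVs, against 5.30, 5.40 and 5.32 in WT EVs (0.40, SE 0.07, adjusted p = 0.0297, limma). These groups did not overlap either.

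The calls of these 4 genes lay close to the threshold. UBQLN1 and UBA1 did not pass without any 1 of the 6 arrays (adjusted p from 0.0581 to 0.145 and from 0.0741 to 0.133, limma). POMP passed only without CD47- replicate 1 (0.0343 to 0.154), and UBB only without CD47- replicate 1 or WT replicate 1 (0.0183 to 0.132). Of the ubiquilin genes on the list, UBQLN2 and UBQLN4 did not pass, with log2 fold changes of 0.01 for UBQLN2 and 0.03 for UBQLN4. Of the further regulatory particle subunits, the ubiquitin receptor ADRM1 (Rpn13) had 6.83, 7.03 and 6.90 in CD47- EVs, against 6.61, 6.71 and 6.74 in WT EVs. Its log2 fold change of 0.23 did not pass (adjusted p = 0.387, limma), although the groups did not overlap. The lid protein SEM1 had a log2 fold change of 0.05, the unfoldase VCP of 0.15 and NFE2L1, the regulator of proteasome genes, of -0.07.

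**Figure D4:**
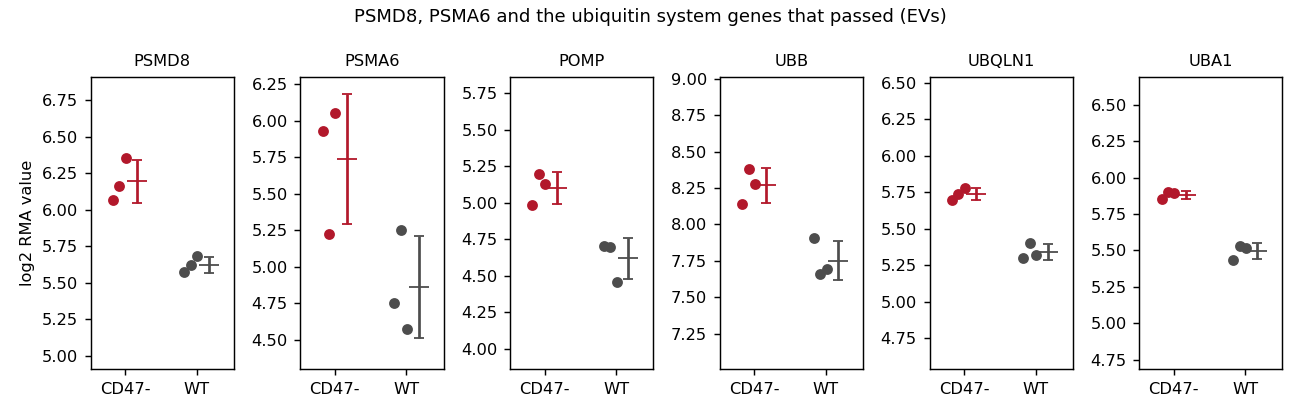
Log2 RMA values of PSMD8, PSMA6 and the related genes outside the PSM symbols (POMP, UBB, UBQLN1 and UBA1) that passed the test. Points are arrays, bars are the mean and SD (n = 3), CD47- left of WT, and every panel spans the same log2 range. CD47- and WT EVs do not overlap in PSMD8, POMP, UBB, UBQLN1 and UBA1, whereas in PSMA6 the arrays of replicate 2 meet, at 5.23 in CD47- and 5.25 in WT EVs.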

How the data were processed

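RNA of EVs from 3 preparations of CD47- JinB8 cells and 3 of WT Jurkat cells was measured on 6 one-color arrays. The deposited log2 values were made by the authors with RMA in Affymetrix Expression Console; the sources used here give no versions. RMA corrects background, normalizes by quantiles and summarizes probes, which removes any difference in total RNA and compresses changes of dim probe sets. There are no detection calls.

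Of 33297 probe sets, 19460 had 1 gene symbol in the platform annotation, 1754 several and 12083 none; the first gave 18417 genes, each represented by its brightest probe set (769 genes had several). Groups and replicate numbers were taken from the labels. The test was limma 3.58.1 in R 4.3.3 (lmFit, eBayes), CD47- over WT EVs, with no filter on dim genes, and p values were adjusted by Benjamini-Hochberg over all genes (threshold 0.05). The 3 pairs of catalytic subunits were compared by an exact permutation test of within-array differences. On simulated data with 18417 genes of this comparison, recovery was 69% for log2 changes of 0.5 and 96% for changes of 1. Changes smaller than 0.5 were not simulated, and the median log2 fold change of the proteasome genes was 0.10. Of the calls, 2.37% were false. The simulation drew the noise of each gene independently, without effects shared across an array. These shares may therefore not hold for the arrays themselves. The number of arrays limits the precision; the median SE of the proteasome genes was 0.09.

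The proteasome genes and all lists were chosen with earlier results of these data known. Values in every array are given for genes that passed, for the gene of each class with the smallest p and that with the lowest fold change, and for the 3 pairs; PSMA2, PSMB2, ADRM1 and the sequences were added after their values were seen. The alternatives were a replicate block, olfactory receptor centering, a further quantile normalization, a trended robust variance, array weights, only genes above the olfactory receptor median, the mean of a gene's probe sets, probe sets with several symbols, other thresholds, and leaving out each array. Promoters and positions are from RefSeq; the array values name no genome build.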

Additional observations from a re-analysis of the deposited data

How the results depend on the processing

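PSMD8 passed under every alternative, and 0 proteasome genes passed as lower under any. The number that passed was 3 with centering on olfactory receptor genes (PSMA2, PSMA6 and PSMD8), 2 with an adjusted p under 0.10 and 1 to 2 when each array was left out; the median log2 fold change was 0.16 with that centering, which moved the median of all genes to 0.06, and 0.072 to 0.13 over the arrays left out. The replicate numbers did not pair the arrays (r of deviations 0.02, -0.02 and -0.04 for the same number); with the replicate block 1 proteasome gene passed and the median stayed at 0.10, while POMP (adjusted p = 0.0518), UBQLN1 (0.0669), UBB (0.0558) and UBA1 (0.068) did not pass (limma). UBB (0.0708) and UBA1 (0.0512) also did not pass after a further quantile normalization (limma). Of all genes, 123 passed as higher and 3 as lower, and over the alternatives from 53 to 237 as higher, with 237 under the olfactory receptor centering, and from 1 to 5 as lower. Of 605 values of the 45 proteasome genes under the alternatives, 47 had the other sign, in 17 genes, whose log2 fold changes were at most 0.123 in size. With the olfactory receptor centering these were PSMA4 at 0.016, PSMA8 at 0.046, PSMB9 at 0.053, PSMC6 at 0.058, PSMD11 at 0.048, PSMD14 at 0.049, PSMD5 at 0.052 and PSMD9 at 0.021. After a further quantile normalization they were PSMA8 at 0.0067 and PSMD5 at 0.0046 and, among the related genes, UBQLN4 at -0.0067; with array weights PSMC6 at 0.0061 and PSMD5 at 0.015; and with the mean of the probe sets PSMC6 at 0.10. When each array was left out, the log2 fold change ranged from -0.073 to 0.097 for PSMA3, -0.11 to 0.041 for PSMA4, -0.095 to 0.090 for PSMA5, -0.010 to 0.13 for PSMA7, -0.080 to 0.056 for PSMA8, -0.066 to 0.10 for PSMB9, -0.21 to 0.0019 for PSMB11, -0.016 to 0.041 for PSMC1, -0.033 to 0.026 for PSMC6, -0.038 to 0.12 for PSMD3, -0.090 to 0.056 for PSMD11, -0.060 to 0.10 for PSMD12, -0.085 to 0.032 for PSMD14, -0.010 to 0.23 for PSME2, -0.0014 to 0.079 for PSMG1, -0.072 to 0.066 for PSMD5, -0.11 to 0.022 for PSMD9, -0.081 to 0.24 for SEM1, -0.051 to 0.056 for UBQLN2 and -0.12 to 0.021 for NFE2L1, and the difference PSMB9 minus PSMB6 shifted by -0.28 to 0.0053. The cause of these changes was not tested. Low signal limits these values, since 25 of the 45 genes lay below the median of the olfactory receptor genes, and so does the number of arrays, 3 in each group.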
